A study of Mus musculus with 9 samples.

Results

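The genes described here encode the transporters and enzymes that carry glucose to lactate (glycolysis) and into the pentose phosphate shunt. They were chosen by name from a list of 35 gene symbols, which matched 36 gene identifiers because Aldoa has 2, of 55401 identifiers in the deposited count table and 30411 in the FPKM table. FPKM counts fragments per kilobase of a transcript and relative to the size of the library, so that levels of different genes can be compared per length. RNA was sequenced in HEI-OC1 cells, a conditionally immortalised mouse line from the organ of Corti, in 3 groups of 3 libraries. Pretreated H2O2 cells received a nanoreactor with selenium, superoxide dismutase and catalase in an albumin scaffold and then hydrogen peroxide, H2O2 cells received hydrogen peroxide alone, and control cells received neither. The nanoreactor is written HCS@Se, SCGS or HSC@Se in different labels, which were taken as 1 agent. Doses and exposure times are missing from the labels. The nanoreactor was always followed by hydrogen peroxide, so an effect of the nanoreactor on unstressed cells cannot be told apart from an effect on the response to the oxidant. The replicates are labelled as separate samples of 1 cell line; where they are not separate cultures, p-values measure technical spread only.

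Glycolysis splits glucose into pyruvate and yields ATP, and lactate dehydrogenase turns pyruvate into lactate, which leaves the cell through monocarboxylate carriers. The pentose phosphate shunt branches off at glucose 6-phosphate: its oxidative arm makes NADPH, which glutathione and thioredoxin reductases use to remove peroxides, and its non-oxidative arm exchanges sugars with glycolysis and provides ribose for nucleotides. Cells given hydrogen peroxide are known to divert glucose 6-phosphate into this shunt, largely by control of enzyme activity, which RNA levels do not measure. The cochlea is rich in oxidative metabolism, and hair cells are known for their sensitivity to peroxides.

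Library totals ranged from 55395418 to 67215208 deposited counts. Genes with a count numbered 24043 to 24141 in pretreated H2O2 libraries, 20502 to 20920 in H2O2 libraries and 20102 to 20741 in control libraries. Of 12 markers of hair cells and supporting cells, 5 had no count in any library (Atoh1, Slc26a5, Calb2, Sox2 and Prox1), and the 12 together summed to 1.0 to 1.21 FPKM in pretreated H2O2, 1.42 to 1.7 FPKM in H2O2 and 1.88 to 2.04 FPKM in control. All 8 mesenchyme markers had a count in some library, but Thy1 reached at most 0.0204 FPKM. Their sums were 1854.9 to 1862.3 FPKM in pretreated H2O2, 1932.7 to 1944.7 FPKM in H2O2 and 1735.9 to 1741.9 FPKM in control. Single markers moved apart: in the same order of groups, Pdgfrb had means of 10.1, 32.0 and 59.3 FPKM and Acta2 836.8, 753.8 and 526.8 FPKM. Of 7 tested, 2 were higher and 5 lower in pretreated H2O2 than in H2O2, against 32.4% and 31.3% of all genes. Of 8 blood cell markers 6 had counts, with sums of 4.18 to 4.89 FPKM in pretreated H2O2, 3.4 to 4.29 FPKM in H2O2 and 1.47 to 1.64 FPKM in control, while Ptprc and Adgre1 had none. Of 7 neuron and glia markers 6 had counts, with sums of 3.49 to 4.05 FPKM in pretreated H2O2, 1.99 to 2.34 FPKM in H2O2 and 1.19 to 1.72 FPKM in control; Rbfox3 had none. A single gene held most of each sum other than that of mesenchyme. Group means in pretreated H2O2, H2O2 and control were 0.913, 1.4 and 1.69 FPKM for Jag1, a supporting cell marker. They were 3.54, 3.05 and 0.897 FPKM for the blood marker Cd68 and 3.56, 2.14 and 1.31 FPKM for the neuron marker Tubb3. The marker sums moved with the groups, and their part in the results was not tested. Since each value is a share of a library, less RNA per cell and fewer cells with that RNA cannot be told apart.

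Promoter sequences are shown for 4 genes that were higher and 1 that was lower in pretreated H2O2 than in H2O2 cells, because the letters ACGTG were found in 7 of the 8 higher and 5 of the 22 lower ones. GCGTG, another hypoxia-related core, was found in 5 of the 8 and 13 of the 22. The genes and the motif comparison were picked after the values were seen. Each sequence is the 250 bases upstream of a RefSeq start site, 5′ to 3′ on the gene's strand, on GRCm38.p6. Where a gene had several start sites, the window with the most ACGTG matches is shown. Capitals mark ACGTG, the core letters of the hypoxia response element bound by HIF factors, or its reverse complement CACGT. A run of CACGTG, the E-box bound by MYC and related factors, holds the core on both strands and was counted as 2 matches.
Hk2, chr6:82774455-82774704, minus strand: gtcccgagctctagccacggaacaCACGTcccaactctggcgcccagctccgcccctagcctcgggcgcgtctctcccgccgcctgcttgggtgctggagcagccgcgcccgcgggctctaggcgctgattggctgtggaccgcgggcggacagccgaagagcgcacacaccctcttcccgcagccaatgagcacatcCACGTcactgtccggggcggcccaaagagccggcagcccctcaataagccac
Slc2a1, chr4:119108495-119108744, plus strand: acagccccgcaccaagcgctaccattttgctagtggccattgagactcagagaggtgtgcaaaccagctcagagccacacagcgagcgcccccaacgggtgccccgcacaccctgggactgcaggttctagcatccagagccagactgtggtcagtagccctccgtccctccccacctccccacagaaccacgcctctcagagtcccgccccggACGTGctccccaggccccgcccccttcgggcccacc
Slc16a1, chr3:104638414-104638663, plus strand: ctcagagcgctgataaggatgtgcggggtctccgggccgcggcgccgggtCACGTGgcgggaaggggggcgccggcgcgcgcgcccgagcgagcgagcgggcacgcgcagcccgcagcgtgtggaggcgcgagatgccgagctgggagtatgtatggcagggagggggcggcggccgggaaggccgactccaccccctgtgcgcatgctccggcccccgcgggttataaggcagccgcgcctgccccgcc
Pgam1, chr19:41911621-41911870, plus strand: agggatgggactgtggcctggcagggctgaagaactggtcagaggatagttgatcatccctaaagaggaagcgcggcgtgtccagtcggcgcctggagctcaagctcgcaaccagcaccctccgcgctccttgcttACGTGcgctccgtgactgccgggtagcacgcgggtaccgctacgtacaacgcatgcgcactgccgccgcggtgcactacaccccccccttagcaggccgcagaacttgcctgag
Ldha, chr7:46845554-46845803, plus strand: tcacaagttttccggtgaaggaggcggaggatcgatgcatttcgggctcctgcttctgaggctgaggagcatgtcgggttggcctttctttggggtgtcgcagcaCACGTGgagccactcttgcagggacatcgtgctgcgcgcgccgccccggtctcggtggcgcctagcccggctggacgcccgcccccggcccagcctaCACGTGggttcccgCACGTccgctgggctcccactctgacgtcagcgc

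The 2 matches of Hk2 start 226 and 52 bases before its start site, that of Slc2a1 36 bases before and that of Pgam1 114 bases before. Ldha, which was lower in pretreated H2O2 than in H2O2 cells, had the most matches, 5, in the window shown. That window was picked for its matches, and the other Ldha window had 0. RefSeq start sites were matched for 34 of the 35 symbols, some with several windows. At least 1 window held ACGTG in 7 of the 8 genes called higher in pretreated H2O2 than in H2O2 cells (Hk2, Slc2a1, Slc16a1, Slc16a3, Pfkfb3, Pgam1 and Me1, but not Pgd) and in 5 of the 22 called lower (Aldoa, Ldha, Pfkm, Pgk1 and Pkm). Among these, Me1 of the higher genes and Aldoa, Ldha, Pfkm and Pkm of the lower ones also had a window without it. Over all 34 genes the share was 38.2%, against 18.5% of 27025 genes with a promoter in the table and 16.6% of 32851 single windows. The core of the antioxidant response element bound by NRF2, TGACNNNGC on either strand, was found in 4 of the 34 genes (11.8%), against 11.5% of all genes. GCGTG, a variant hypoxia core, was found in 5 of the 8 genes called higher and 13 of the 22 called lower, and in 22 of 34 in all (64.7%), against 30.9% of all genes. CACGTG was found in 5 of 34 (14.7%), against 6.86%. These matches describe letters in a window, not binding of a factor.

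Most of the pathway was higher in H2O2 than in control cells, but only 17 of 36 identifiers with the length and GC offsets described below. Most of it was lower in pretreated H2O2 than in H2O2 cells. In that second comparison 8 genes were higher: the glucose transporter Slc2a1, the hexokinase Hk2, Pfkfb3, Pgam1, the lactate carriers Slc16a1 and Slc16a3, Pgd and Me1. In edgeR's quasi-likelihood test with Benjamini-Hochberg adjustment over 18092 genes, a gene was called at an adjusted p under 0.05. In H2O2 against control, 48.7% of all genes were called, 24.6% higher and 24.1% lower, and of the 36 identifiers 23 were higher and 6 lower, with a median log2 fold change of 0.24 against 0.02 over all genes. In pretreated H2O2 against H2O2, 63.6% of all genes were called, 32.4% higher and 31.3% lower. Of the 36 identifiers 8 were higher and 22 lower, with a median of -0.23 against 0.02. In limma on log2(FPKM + 0.1), for genes with a mean of at least 0.5 FPKM, 28.5% were higher and 44.2% lower. Of 33 identifiers tested that way, 7 were higher and 23 lower, and the contrast was smaller, with a median of -0.27 against -0.13. In pretreated H2O2 against control, 63.1% of all genes were called, 33.7% higher and 29.5% lower, and 15 were higher and 10 lower, with a median of 0.04 against 0.06. These last counts lie near the background and show nothing about the pathway as a whole. Libraries of the groups compared did not overlap in CPM, the counts scaled to library size, for 30 of the 36 identifiers in the first comparison, 34 in the second and 29 in the third, against 55.9%, 69.7% and 68.9% of all genes. The 3 comparisons share libraries: H2O2 libraries enter the first with a plus sign and the second with a minus sign, so opposite signs between those 2 are not independent.

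Offsets for transcript length and GC content changed these medians. The offsets were fitted per library to these same data. A technical bias and a real group difference that follows length or GC can therefore not be told apart. With the offsets, the counts became 17 higher and 6 lower in H2O2 against control, with a median of 0.06. Over all genes, 17.9% were then higher and 19.9% lower, with a median of -0.02. In pretreated H2O2 against H2O2 the counts became 10 higher and 23 lower, with a median of -0.21. There, 32.7% of all genes were higher and 30.7% lower, with a median of 0.04. In pretreated H2O2 against control the counts became 12 higher and 18 lower, with a median of -0.07. For all genes these were 32.9% and 30.4%, with a median of 0.03. The direction in pretreated H2O2 against H2O2 was thus nearly as large with the offsets, while the higher median in H2O2 against control was much smaller.

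**Figure D1:**
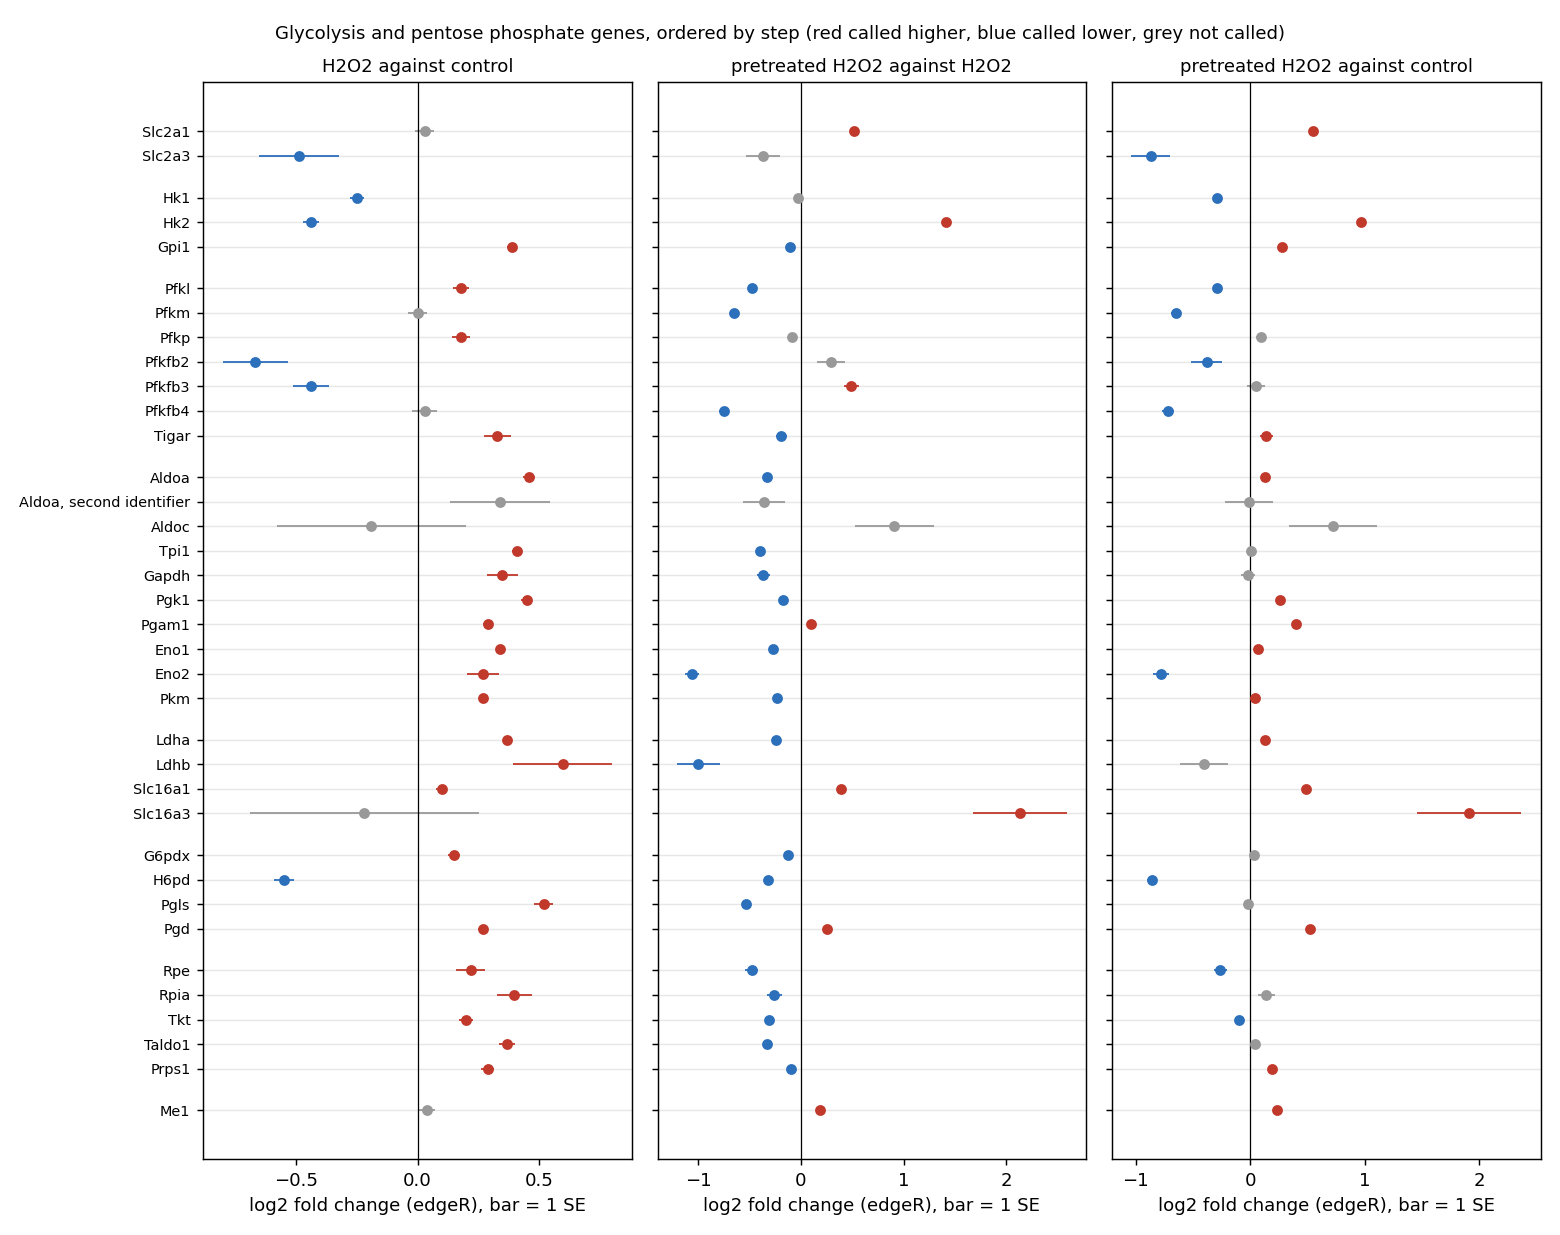
Log2 fold changes of the 36 identifiers in each comparison, ordered by step from glucose transport at the top to malic enzyme at the bottom; bars are 1 standard error of the edgeR fit and colours give the call. Most points lie right of 0 in H2O2 against control and left of 0 in pretreated H2O2 against H2O2, where Hk2 (1.41) and Slc16a3 (2.13) lie farthest to the right.

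Slc2a1 (GLUT1), the facilitative glucose transporter of most cultured cells, held 98.8 ± 0.129% of the summed Slc2a1 and Slc2a3 FPKM in pretreated H2O2, 97.8 ± 0.169% in H2O2 and 96.8 ± 0.515% in control (SD, n = 3 each, as throughout). Slc2a1 (ENSMUSG00000028645, chromosome 4, 119108711 to 119137983 on GRCm38) had 23.1, 23.4 and 23.5 FPKM in pretreated H2O2, 16.0, 17.5 and 16.2 FPKM in H2O2 and 16.2, 16.9 and 16.1 FPKM in control. The 3 pretreated libraries lay above all others, and the H2O2 and control libraries overlapped. Slc2a1 rose 1.44-fold in pretreated H2O2 against H2O2 (log2 fold change 0.52, SE 0.0392, adjusted p = 1.41e-07, edgeR) and 1.47-fold against control (0.55, SE 0.0393, adjusted p = 8.5e-08), whereas H2O2 against control had a log2 fold change of 0.03 (adjusted p = 0.611). Slc2a3 (GLUT3), a high-affinity transporter typical of neurons, was low, at 0.288 ± 0.0299 FPKM in pretreated H2O2, 0.379 ± 0.0454 FPKM in H2O2 and 0.542 ± 0.0835 FPKM in control. It fell in pretreated H2O2 against control (log2 fold change -0.87, adjusted p = 0.00061) and in H2O2 against control (-0.49, adjusted p = 0.0255). The second of these calls ended with the length and GC offsets (-0.09, adjusted p = 0.717) and without control replicate 1 (-0.37, adjusted p = 0.123), H2O2 replicate 1 (-0.41, adjusted p = 0.0947) or H2O2 replicate 3 (-0.50, adjusted p = 0.0618).

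Hexokinases trap glucose as glucose 6-phosphate, the substrate of both routes. Hk2, the inducible isozyme that binds mitochondria and is prominent in muscle and proliferating cells (ENSMUSG00000000628, chromosome 6, 82725025 to 82774454), had 24.2, 23.7 and 23.8 FPKM in pretreated H2O2, 9.7, 8.82 and 9.03 FPKM in H2O2 and 12.5, 12.7 and 12.6 FPKM in control. The 3 groups were fully separated, with the pretreated libraries highest and the H2O2 libraries lowest. Hk2 was 2.66-fold higher in pretreated H2O2 than in H2O2 (log2 fold change 1.41, SE 0.0331, adjusted p = 3.82e-12), the largest change in that comparison among the 36 identifiers with a mean of at least 1 FPKM. It was 1.95-fold higher in pretreated H2O2 than in control (0.97, SE 0.0326, adjusted p = 8.37e-11) and 1.36-fold lower in H2O2 than in control (-0.44, SE 0.0332, adjusted p = 1.91e-07), the last at -0.17 with the offsets (adjusted p = 0.00124).

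Hk1, the constitutive isozyme, had 11.5 ± 0.254 FPKM in pretreated H2O2, 12.1 ± 0.43 FPKM in H2O2 and 14.5 ± 0.124 FPKM in control. It was lower than control in pretreated H2O2 (log2 fold change -0.29, adjusted p = 1.87e-06) and in H2O2 (-0.25, adjusted p = 8.15e-06; -0.09, adjusted p = 0.0448, with the offsets). Between pretreated H2O2 and H2O2 it was not called (-0.03, adjusted p = 0.31), except with the offsets (-0.19, adjusted p = 0.000273). Hk2 therefore made up 67.4 ± 0.596% of the summed Hk1 and Hk2 FPKM in pretreated H2O2, 43.2 ± 0.354% in H2O2 and 46.5 ± 0.339% in control. The sum of both was 35.4 ± 0.317 FPKM in pretreated H2O2, 21.3 ± 0.89 FPKM in H2O2 and 27.1 ± 0.0677 FPKM in control. Gpi1, which turns glucose 6-phosphate into fructose 6-phosphate, had 74.3 ± 0.603 FPKM in pretreated H2O2, 81.9 ± 0.541 FPKM in H2O2 and 62.8 ± 1.1 FPKM in control. It rose in H2O2 against control (log2 fold change 0.39, adjusted p = 5.1e-09) and in pretreated H2O2 against control (0.28, adjusted p = 6.95e-08; 0.17 with the offsets), and was lower in pretreated H2O2 than in H2O2 (-0.11, adjusted p = 0.00037), which a filter at a mean of 1 CPM ended (-0.03, adjusted p = 0.191).

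**Figure D2:**
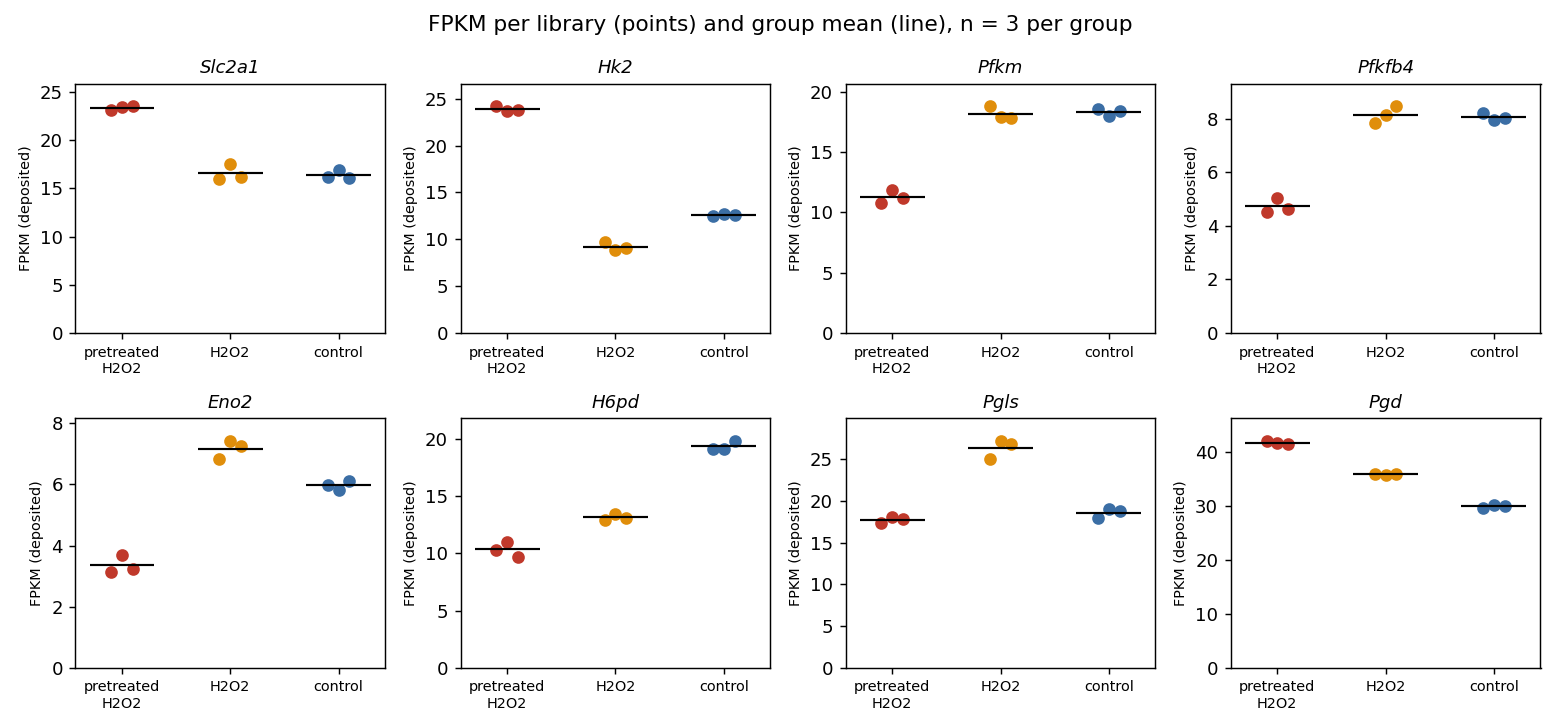
Deposited FPKM of each library (points) and group means (lines) for the 8 genes with a called log2 fold change of at least 0.5 in size and a mean of at least 1 FPKM; each axis starts at 0. Hk2 and Slc2a1 are highest in the pretreated H2O2 libraries, Pfkm, Pfkfb4 and Eno2 are lowest there, Pgls is highest in H2O2, and H6pd is highest in control.

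Phosphofructokinase commits fructose 6-phosphate to glycolysis, and its 3 isozyme genes moved differently from Hk2. Pfkm, the muscle-type subunit (ENSMUSG00000033065, chromosome 15, 98092589 to 98132447), had 10.8, 11.9 and 11.2 FPKM in pretreated H2O2, 18.8, 17.9 and 17.8 FPKM in H2O2 and 18.6, 18.0 and 18.4 FPKM in control. Every pretreated library lay below every other library, and H2O2 and control overlapped. Pfkm was 1.57-fold lower in pretreated H2O2 than in H2O2 (log2 fold change -0.65, SE 0.0405, adjusted p = 2.56e-08) and 1.57-fold lower than in control (adjusted p = 2.31e-08). In H2O2 against control it was not called (adjusted p = 0.967; -0.11, adjusted p = 0.0405, with the offsets). Pfkl, the liver-type subunit, had 10.6 ± 0.164 FPKM in pretreated H2O2, 15.0 ± 0.338 FPKM in H2O2 and 13.3 ± 0.483 FPKM in control, and fell in pretreated H2O2 against H2O2 (-0.48, adjusted p = 6.45e-08) and against control (-0.29, adjusted p = 6.24e-06).

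Pfkp, the platelet-type subunit, was the lowest of the isozymes, at 4.01 ± 0.0701 FPKM in pretreated H2O2, 4.35 ± 0.106 FPKM in H2O2 and 3.87 ± 0.15 FPKM in control. It rose in H2O2 against control (log2 fold change 0.18, adjusted p = 0.0018; 0.74 once length and GC offsets were fitted) and was not called in pretreated H2O2 against H2O2 (-0.09, adjusted p = 0.0689) or against control (0.09, adjusted p = 0.0518), though both were called with the offsets (-0.39, adjusted p = 1.06e-06, and 0.35, adjusted p = 2.86e-06). Exons of Pfkp overlap those of the more abundant Pitrm1 on the opposite strand over 748 bases, with mean counts of 3742 and 17095, and whether the counting used strand is not given, so its values are uncertain. The 3 subunits summed to 25.9 ± 0.452 FPKM in pretreated H2O2, 37.5 ± 0.372 FPKM in H2O2 and 35.5 ± 0.455 FPKM in control. Hk2 and Pfkm moved in opposite directions in pretreated H2O2 against H2O2, so their ratio restates those changes. The ratio of Hk2 to Pfkm was 2.11 ± 0.121 in pretreated H2O2, 0.506 ± 0.0116 in H2O2 and 0.687 ± 0.0156 in control.

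Fructose 2,6-bisphosphate, the strongest activator of phosphofructokinase, is made and removed by the bifunctional PFKFB enzymes. Pfkfb4 (ENSMUSG00000025648, chromosome 9, 108991778 to 109032228) had 4.52, 5.05 and 4.62 FPKM in pretreated H2O2, 7.86, 8.13 and 8.47 FPKM in H2O2 and 8.21, 7.95 and 8.02 FPKM in control. The pretreated libraries were the lowest and the other groups overlapped. Pfkfb4 was 1.69-fold lower in pretreated H2O2 than in H2O2 (log2 fold change -0.75, SE 0.0527, adjusted p = 7.55e-08) and 1.65-fold lower than in control (-0.72, adjusted p = 1.05e-07), with 0.03 in H2O2 against control (adjusted p = 0.703). Pfkfb3, the isozyme with the highest kinase activity relative to phosphatase, had 2.64 ± 0.0963 FPKM in pretreated H2O2, 1.92 ± 0.121 FPKM in H2O2 and 2.62 ± 0.175 FPKM in control. It was higher in pretreated H2O2 than in H2O2 (0.49, adjusted p = 9.78e-05) and lower in H2O2 than in control (-0.44, adjusted p = 0.000325; -0.25 with the offsets), with 0.05 in pretreated H2O2 against control (adjusted p = 0.581).

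The makeup of the PFKFB transcripts thus differed: Pfkfb4 held 59.1 ± 1.33% of their summed FPKM in pretreated H2O2, 76.9 ± 1.47% in H2O2 and 69.9 ± 1.87% in control. Pfkfb3 held 33.0 ± 0.387% in pretreated H2O2, 18.1 ± 1.47% in H2O2 and 22.7 ± 1.25% in control. Pfkfb2, the heart-type isozyme, was low, at 0.63 ± 0.0856 FPKM in pretreated H2O2, 0.527 ± 0.0114 FPKM in H2O2 and 0.847 ± 0.0836 FPKM in control. It fell in H2O2 against control (log2 fold change -0.67, adjusted p = 0.00109) and in pretreated H2O2 against control (-0.38, adjusted p = 0.0244). The second of these calls was lost without control replicate 2 (-0.30, adjusted p = 0.0965), pretreated H2O2 replicate 2 (-0.29, adjusted p = 0.0914) or pretreated H2O2 replicate 3 (-0.38, adjusted p = 0.055), with the offsets (-0.25, adjusted p = 0.116) and in DESeq2 (adjusted p = 0.0568). Tigar, a p53 target that removes fructose 2,6-bisphosphate and so favours the pentose phosphate shunt, had 8.06 ± 0.273 FPKM in pretreated H2O2, 9.39 ± 0.298 FPKM in H2O2 and 7.52 ± 0.341 FPKM in control. It rose in H2O2 against control (0.33, adjusted p = 0.000201; 0.32 with the offsets) and was lower in pretreated H2O2 than in H2O2 (-0.19, adjusted p = 0.00806; -0.11, adjusted p = 0.0874, with a filter at a mean of 1 CPM). Its difference between pretreated H2O2 and control (0.14, adjusted p = 0.0351) lost its call in 12 of the alternatives.

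**Figure D3:**
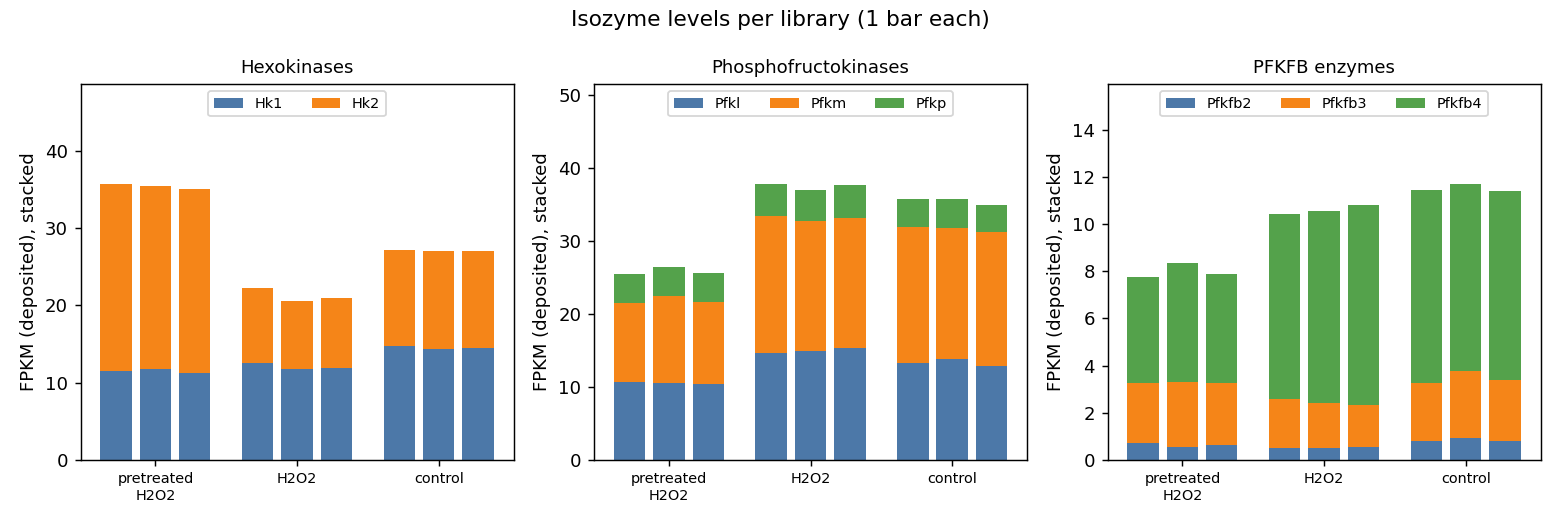
Stacked deposited FPKM of hexokinase, phosphofructokinase and PFKFB genes, 1 bar per library, grouped as pretreated H2O2, H2O2 and control. Hk2 forms the larger part of the hexokinase bars in pretreated H2O2 libraries, where the phosphofructokinase and PFKFB bars are the shortest.

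The lower part of glycolysis, from aldolase to pyruvate kinase, held the most abundant transcripts. Its 10 identifiers summed to 2086.7 ± 7.81 FPKM in pretreated H2O2, 2439.6 ± 16.1 FPKM in H2O2 and 1922.2 ± 4.27 FPKM in control. These sums leave out the near-identical copies of Gapdh described below, which held 98.27% of the counts on Gapdh and its copies. In H2O2 against control, where 24.6% of all genes were called higher and 24.1% lower, 8 rose and 0 fell, with 2 not called and a median log2 fold change of 0.34 (6 rose, and the median was 0.16, with the offsets). In pretreated H2O2 against H2O2, with 32.4% of all genes higher and 31.3% lower, 1 rose and 7 fell, with a median of -0.30 (2 rose and 6 fell, with -0.23, with the offsets). In pretreated H2O2 against control, with 33.7% of all genes higher and 29.5% lower, 5 rose and 1 fell, with a median of 0.05, but 2 rose and 5 fell, with a median of -0.07, with the offsets, so no direction is given for that comparison.

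Aldoa, the muscle-type aldolase and main aldolase here (ENSMUSG00000030695), had 200.7 ± 2.37 FPKM in pretreated H2O2, 258.1 ± 5.45 FPKM in H2O2 and 188.6 ± 4.0 FPKM in control. Triose phosphate isomerase, Tpi1, had 298.7 ± 5.09 FPKM in pretreated H2O2, 401.6 ± 3.5 FPKM in H2O2 and 305.6 ± 3.45 FPKM in control. Both rose in H2O2 against control (log2 fold changes 0.46 and 0.41, adjusted p = 4.93e-09 and 2.79e-09; 0.18 and 0.07 with the offsets) and were lower in pretreated H2O2 than in H2O2 (-0.33 and -0.40, adjusted p = 7.63e-08 and 2.24e-09; Tpi1 at -0.26 with the offsets). Pgk1, the first ATP-making kinase of the pathway, had 378.2 ± 8.09 FPKM in pretreated H2O2, 438.3 ± 9.69 FPKM in H2O2 and 324.4 ± 4.42 FPKM in control, and its fall in pretreated H2O2 against H2O2 (-0.18, adjusted p = 1.45e-05) ended with the offsets (-0.03, adjusted p = 0.296).

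Pgam1, the phosphoglycerate mutase, differed from its neighbours in the pathway: it had 484.6 ± 2.54 FPKM in pretreated H2O2, 460.3 ± 5.73 FPKM in H2O2 and 378.8 ± 1.38 FPKM in control. It was higher in pretreated H2O2 than in H2O2 (log2 fold change 0.10, adjusted p = 0.000217; 0.23 once the offsets were fitted) and than in control (0.40, adjusted p = 1.12e-09; 0.21 with them), and its rise in H2O2 against control (0.29, adjusted p = 2.72e-08) was lost with the offsets (-0.02, adjusted p = 0.487). The ubiquitous enolase Eno1 had 264.0 ± 2.39 FPKM in pretreated H2O2, 324.4 ± 2.96 FPKM in H2O2 and 259.3 ± 2.85 FPKM in control, higher in H2O2 than in control (0.34, adjusted p = 4.59e-09; 0.17 with the offsets) and lower in pretreated H2O2 than in H2O2 (-0.27, adjusted p = 2.63e-08). Pyruvate kinase, Pkm, which makes pyruvate and ATP, had 439.6 ± 3.69 FPKM in pretreated H2O2, 526.8 ± 3.37 FPKM in H2O2 and 441.4 ± 0.0489 FPKM in control, with log2 fold changes of 0.27 in H2O2 against control (adjusted p = 1.35e-08; 0.16 with the offsets) and -0.23 in pretreated H2O2 against H2O2 (adjusted p = 3.82e-08). The M1 and M2 forms of Pkm share 1 identifier and were not separated.

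Eno2, the neuron-type enolase (ENSMUSG00000004267, chromosome 6, 124760053 to 124769621), had 3.15, 3.7 and 3.22 FPKM in pretreated H2O2, 6.82, 7.42 and 7.26 FPKM in H2O2 and 5.98, 5.81 and 6.11 FPKM in control. The 3 groups did not overlap, with the pretreated libraries lowest and the H2O2 libraries highest. Eno2 was 2.08-fold lower in pretreated H2O2 than in H2O2 (log2 fold change -1.06, SE 0.0683, adjusted p = 3.49e-08) and 1.72-fold lower than in control (-0.78, SE 0.0683, adjusted p = 5.69e-07). It rose in H2O2 against control (0.27, adjusted p = 0.00415), though not past the threshold once the offsets were fitted (0.16, adjusted p = 0.0677). Eno2 made up 1.26 ± 0.101% of the summed Eno1 and Eno2 FPKM in pretreated H2O2, 2.16 ± 0.0986% in H2O2 and 2.25 ± 0.0797% in control. The neuron and glia markers given above summed to 3.49 to 4.05 FPKM in pretreated H2O2 and 1.99 to 2.34 FPKM in H2O2, most of it Tubb3. A relation of these markers to Eno2 was not tested.

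The brain-type aldolase Aldoc and the second Aldoa identifier (ENSMUSG00000114515), which lies upstream of the first, were not called by edgeR in any comparison. Aldoc had 0.251, 0.291 and 0.223 FPKM in pretreated H2O2, 0.103, 0.21 and 0.102 FPKM in H2O2 and 0.112, 0.14 and 0.217 FPKM in control, with a log2 fold change of 0.91 in pretreated H2O2 against H2O2 (adjusted p = 0.0559). That difference was called without H2O2 replicate 2 (1.35, adjusted p = 0.0125), with counts divided by 4 (0.94, adjusted p = 0.0274), with RLE size factors (0.96, adjusted p = 0.0447) and with the offsets (0.94, adjusted p = 0.049). The second Aldoa identifier had 1.81, 1.48 and 1.32 FPKM in pretreated H2O2, 1.94, 2.3 and 1.83 FPKM in H2O2 and 1.72, 1.5 and 1.58 FPKM in control. Its H2O2 libraries were the highest, by a margin smaller than the spread within each group (log2 fold change -0.36 in pretreated H2O2 against H2O2, adjusted p = 0.154). Limma on FPKM called it lower in that comparison (-0.38, adjusted p = 0.0226 with a pseudocount of 0.1, and -0.25, adjusted p = 0.0214 with a pseudocount of 1; adjusted p = 0.0463 with 0.1 and no filter). With a pseudocount of 1 it was also called higher in H2O2 against control (0.22, adjusted p = 0.0461).

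Gapdh, the glyceraldehyde phosphate dehydrogenase often used as a reference gene, was listed at only 15.8 ± 1.12 FPKM in pretreated H2O2, 20.8 ± 1.03 FPKM in H2O2 and 16.4 ± 1.42 FPKM in control, well under its neighbours in the pathway. Near-identical copies elsewhere in the genome, defined by at least 95% identity over at least 300 bases, held far more counts: of all counts on Gapdh and 76 such copies, 98.27% lay on the copies. Gm13394 alone, 99.9% identical over 1000 bases, held 41.8% of the counts on copies. Scaled to a common library total (CPM, without TMM), the copies summed to 4184.7 ± 39.2 in pretreated H2O2, 5469.8 ± 63.4 in H2O2 and 3848.5 ± 74.8 in control, and Gapdh itself had 70.7 ± 5.4 in pretreated H2O2, 93.2 ± 4.86 in H2O2 and 73.5 ± 6.72 in control. The level and the changes given for the Gapdh identifier are therefore uncertain. Summed with its copies, an alternative chosen after the data were seen, Gapdh had a log2 fold change of 0.52 in H2O2 against control (adjusted p = 1.15e-10), -0.36 in pretreated H2O2 against H2O2 (adjusted p = 1.8e-09) and 0.16 in pretreated H2O2 against control (adjusted p = 3.04e-06). The identifier alone gave 0.35, -0.37 and -0.02 in the same 3 comparisons (adjusted p = 0.000481, 0.000256 and 0.852). The share on copies was 8.28% for Eno1, 5.54% for Pgam1 and 3.74% for Pgk1, and their calls in all 3 comparisons were kept when copies were summed.

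**Figure D4:**
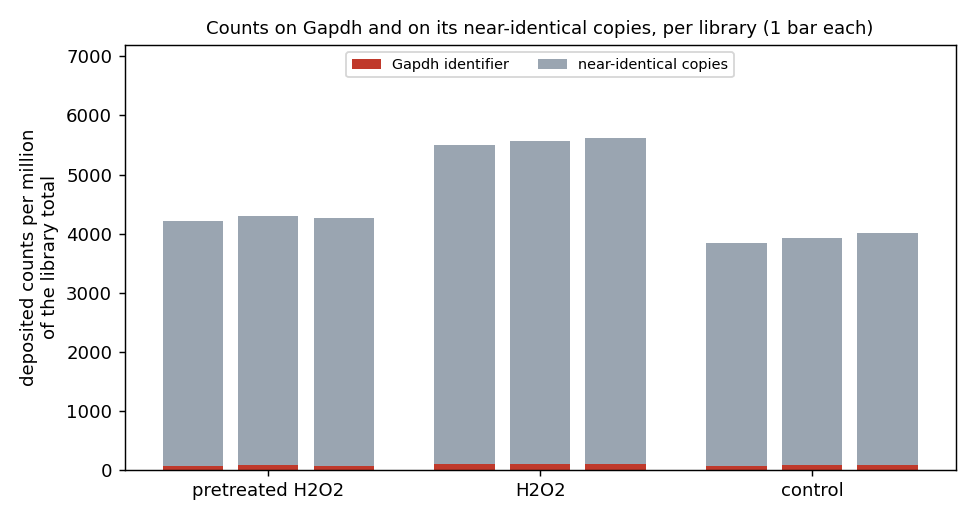
Deposited counts scaled to a common library total (CPM) on the Gapdh identifier (red) and on its near-identical copies (grey), 1 bar per library. The red part is 1.56 to 2.03% of a bar in every library, and the bars are highest in the H2O2 libraries.

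Lactate dehydrogenase and the monocarboxylate carriers end the route. Ldha, the muscle-type subunit, had 311.1 ± 2.4 FPKM in pretreated H2O2, 374.9 ± 5.19 FPKM in H2O2 and 292.8 ± 1.02 FPKM in control. It rose in H2O2 against control (log2 fold change 0.37, adjusted p = 3.93e-09; 0.06, adjusted p = 0.0221, with the offsets) and was lower in pretreated H2O2 than in H2O2 (-0.24, adjusted p = 1.5e-07; -0.10, adjusted p = 0.000279, with the offsets). Ldhb, the heart-type subunit, was much lower per length, with 0.631, 0.612 and 0.569 FPKM in pretreated H2O2, 1.05, 1.19 and 1.49 FPKM in H2O2 and 0.885, 0.834 and 0.767 FPKM in control. Every pretreated library lay below every H2O2 library. Ldhb was 2.0-fold lower in pretreated H2O2 than in H2O2 (-1.0, SE 0.207, adjusted p = 0.000985). Its rise in H2O2 against control (0.60, adjusted p = 0.0273) lost its call in 8 of 19 alternatives, including those without control replicate 2 (adjusted p = 0.0625), control replicate 3 (0.085), H2O2 replicate 2 (0.0548) or H2O2 replicate 3 (0.131). The offsets lowered it to 0.18 (adjusted p = 0.543) and summing with copies, which held 17.32% of the counts on Ldhb and its copies, to 0.44 (adjusted p = 0.105).

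Slc16a1 (MCT1), which moves lactate and pyruvate with a proton, had 65.4 ± 1.09 FPKM in pretreated H2O2, 50.8 ± 1.2 FPKM in H2O2 and 47.9 ± 0.62 FPKM in control. It was higher in pretreated H2O2 than in H2O2 (log2 fold change 0.39, adjusted p = 1.66e-08) and than in control (0.49, adjusted p = 2.12e-09), and slightly higher in H2O2 than in control (0.10, adjusted p = 0.00409; 0.21 with the offsets). Slc16a3 (MCT4), the lactate exporter of strongly glycolytic cells and a known HIF target, was near the lower limit of the data, with 131, 94 and 104 deposited counts in pretreated H2O2, 21, 25 and 29 in H2O2 and 53, 18 and 12 in control. The pretreated libraries lay above all others. Slc16a3 was 4.38-fold higher in pretreated H2O2 than in H2O2 (2.13, SE 0.458, adjusted p = 0.00131) and 3.75-fold higher than in control (1.91, SE 0.453, adjusted p = 0.00265). Without control replicate 1, the highest control library, the second log2 fold change was 2.76 (adjusted p = 6.65e-05). With limma on log2(FPKM + 0.1) and no filter the changes were 1.23 against H2O2 and 1.18 against control. Slc16a1 still held 99.6 ± 0.0706% of the summed FPKM of both carriers in pretreated H2O2.

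In the oxidative arm of the shunt, the steps did not move together. G6pdx, the rate-limiting glucose 6-phosphate dehydrogenase, had 66.3 ± 0.742 FPKM in pretreated H2O2, 74.0 ± 2.03 FPKM in H2O2 and 67.1 ± 0.666 FPKM in control. It rose in H2O2 against control (log2 fold change 0.15, adjusted p = 0.00019), which was lost with the offsets (-0.02, adjusted p = 0.477), and was lower in pretreated H2O2 than in H2O2 (-0.13, adjusted p = 0.000603; -0.05, adjusted p = 0.118, with a filter at a mean of 1 CPM). Its exons overlap those of Ikbkg on the opposite strand over 418 bases.

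H6pd, the dehydrogenase that makes NADPH inside the endoplasmic reticulum (ENSMUSG00000028980, chromosome 4, 149979475 to 150009023), had 10.3, 11.0 and 9.7 FPKM in pretreated H2O2, 12.9, 13.4 and 13.1 FPKM in H2O2 and 19.1, 19.1 and 19.8 FPKM in control. The 3 groups did not overlap, and control was highest. H6pd fell 1.82-fold in pretreated H2O2 against control (log2 fold change -0.86, SE 0.0413, adjusted p = 2.12e-09), 1.46-fold in H2O2 against control (-0.55, SE 0.0409, adjusted p = 1.89e-07; -0.29 with the offsets) and 1.24-fold in pretreated H2O2 against H2O2 (-0.32, SE 0.0414, adjusted p = 2.46e-05; -0.52 with the offsets).

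Pgls, the lactonase of the second step (ENSMUSG00000031807), had 17.4, 18.1 and 17.8 FPKM in pretreated H2O2, 25.0, 27.2 and 26.9 FPKM in H2O2 and 18.0, 19.0 and 18.8 FPKM in control. The H2O2 libraries lay above all others, and pretreated and control libraries overlapped. Pgls rose 1.43-fold in H2O2 against control (log2 fold change 0.52, SE 0.0382, adjusted p = 1.68e-07) and was 1.46-fold lower in pretreated H2O2 than in H2O2 (-0.54, SE 0.0382, adjusted p = 8.03e-08), with -0.02 in pretreated H2O2 against control (adjusted p = 0.615). Exons of Pgls overlap those of Fam129c on the same strand over 776 bases, with mean counts of 5394 and 298.

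Pgd, the 6-phosphogluconate dehydrogenase that makes the second NADPH (ENSMUSG00000028961, chromosome 4, 149149991 to 149166707), had 42.1, 41.7 and 41.6 FPKM in pretreated H2O2, 36.0, 35.8 and 35.9 FPKM in H2O2 and 29.7, 30.2 and 30.1 FPKM in control. The 3 groups were fully separated, with pretreated libraries highest and control libraries lowest. Pgd rose 1.43-fold in pretreated H2O2 against control (log2 fold change 0.52, SE 0.0198, adjusted p = 2.38e-10), 1.19-fold in pretreated H2O2 against H2O2 (0.25, SE 0.0197, adjusted p = 2.23e-07) and 1.21-fold in H2O2 against control (0.27, SE 0.0198, adjusted p = 1.54e-07), and the offsets left these at 0.53, 0.25 and 0.27. The ratio of Pgd to G6pdx FPKM was 0.631 ± 0.00605 in pretreated H2O2, 0.486 ± 0.013 in H2O2 and 0.447 ± 0.00144 in control.

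All 5 genes of the non-oxidative arm and of phosphoribosyl pyrophosphate synthesis rose in H2O2 against control and all 5 were lower in pretreated H2O2 than in H2O2, where 24.6% and 31.3% of all genes moved that way. Their summed level was 153.9 ± 2.97 FPKM in pretreated H2O2, 187.2 ± 1.72 FPKM in H2O2 and 152.8 ± 1.52 FPKM in control. Taldo1, transaldolase, had 57.6 ± 1.9 FPKM in pretreated H2O2, 74.0 ± 2.1 FPKM in H2O2 and 57.8 ± 1.3 FPKM in control (log2 fold change 0.37 in H2O2 against control, adjusted p = 6.91e-07; -0.33 in pretreated H2O2 against H2O2, adjusted p = 1.41e-06). Its rise in H2O2 was lost with the offsets (-0.03, adjusted p = 0.584), and its fall in pretreated H2O2 was then -0.17. Tkt, the transketolase that needs thiamine, had 25.5 ± 0.562 FPKM in pretreated H2O2, 32.2 ± 0.92 FPKM in H2O2 and 28.2 ± 0.737 FPKM in control, with 0.20 in H2O2 against control (adjusted p = 6.7e-05; 0.12 with the offsets) and -0.31 in pretreated H2O2 against H2O2 (adjusted p = 1.26e-06).

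The pentose phosphate isomerases were less abundant. Rpia, which makes ribose 5-phosphate, had 3.74 ± 0.0954 FPKM in pretreated H2O2, 4.57 ± 0.426 FPKM in H2O2 and 3.49 ± 0.0798 FPKM in control, and Rpe, which makes xylulose 5-phosphate, had 9.06 ± 0.388 FPKM in pretreated H2O2, 12.9 ± 0.414 FPKM in H2O2 and 11.2 ± 0.861 FPKM in control. Rpe fell in pretreated H2O2 against H2O2 (log2 fold change -0.48, adjusted p = 1.61e-05) and against control (-0.26, adjusted p = 0.00219); its exons overlap those of Kansl1l on the opposite strand over 558 bases. Prps1, which makes the activated ribose of nucleotide synthesis, had 58.0 ± 1.32 FPKM in pretreated H2O2, 63.4 ± 0.958 FPKM in H2O2 and 52.1 ± 0.562 FPKM in control. Its rise in H2O2 against control (log2 fold change 0.29, adjusted p = 9.81e-07) ended with the offsets (0.03, adjusted p = 0.458). Its direction in pretreated H2O2 against H2O2 depended on the processing: -0.10 (adjusted p = 0.00502) became 0.13 with the offsets (adjusted p = 0.00273). Me1, the cytosolic malic enzyme that makes NADPH outside the shunt, had 32.9 ± 0.791 FPKM in pretreated H2O2, 29.5 ± 0.807 FPKM in H2O2 and 28.8 ± 1.14 FPKM in control, higher in pretreated H2O2 than in H2O2 (0.19, adjusted p = 0.00031; 0.29 with the offsets) and than in control (0.23, adjusted p = 5.75e-05).

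**Figure D5:**
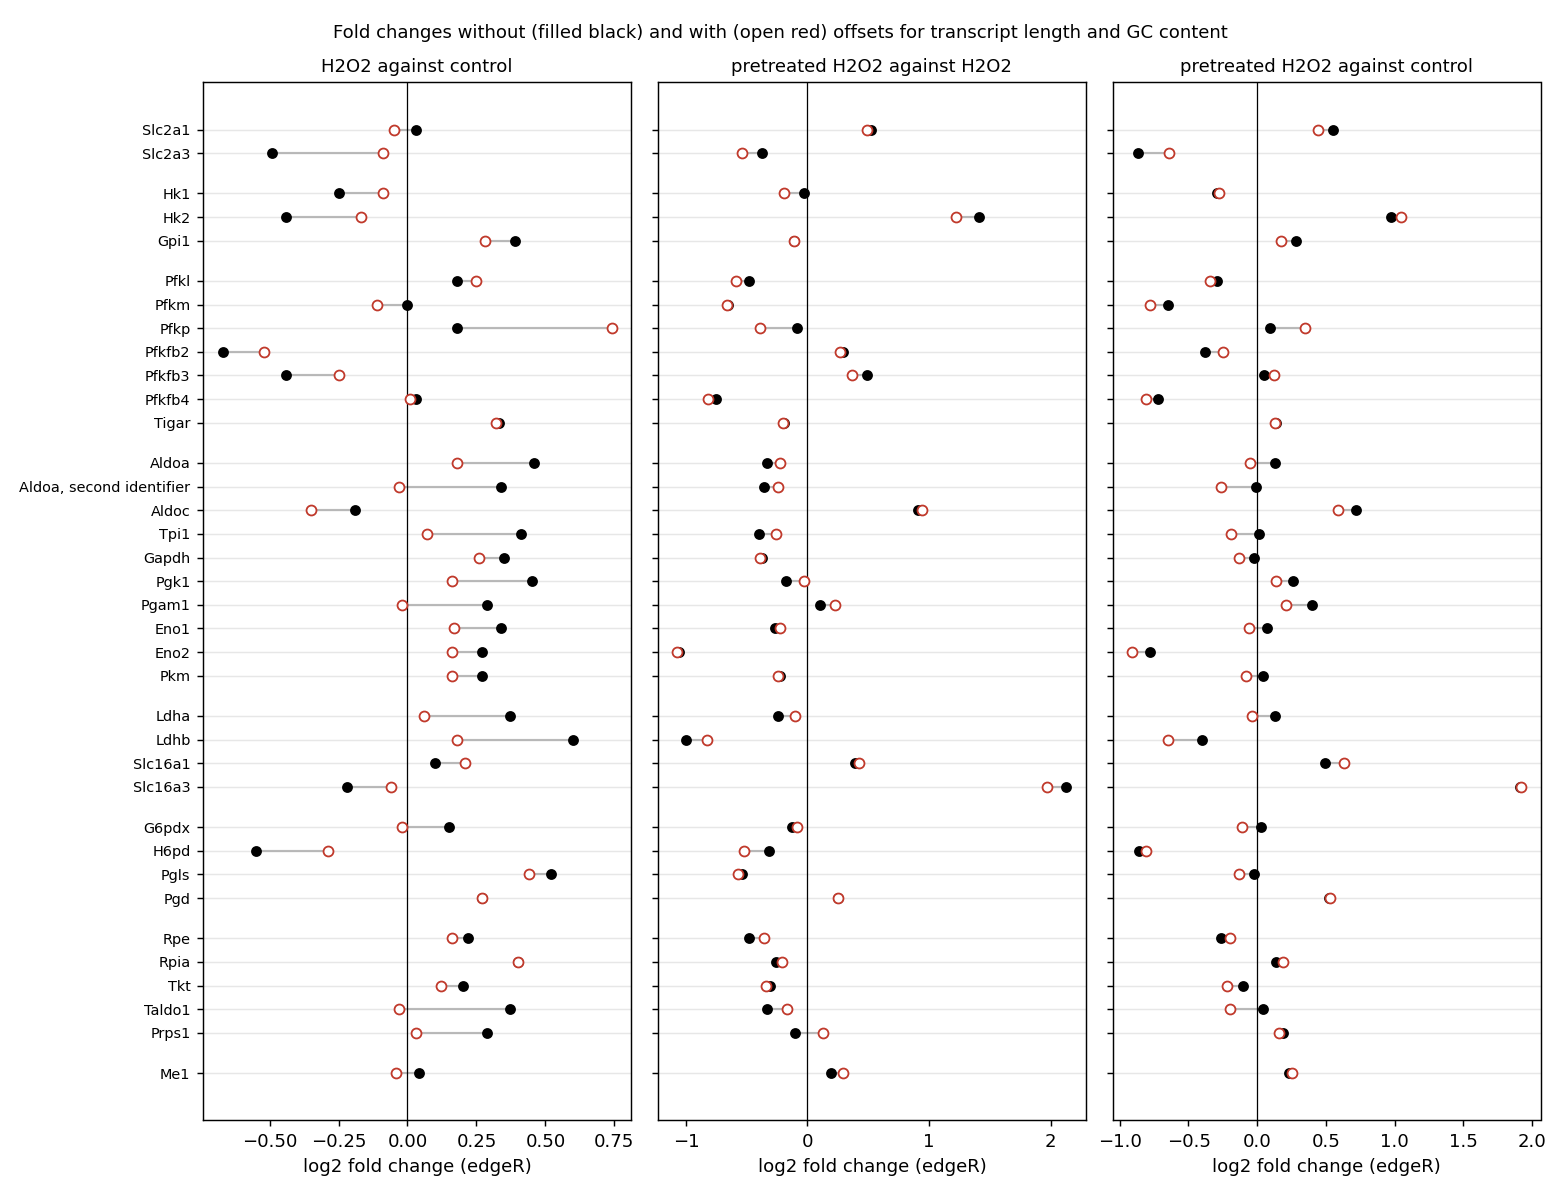
Log2 fold changes of the 36 identifiers without (filled black) and with (open red) offsets for transcript length and GC content, by comparison. In H2O2 against control most open points lie closer to 0, and Pgam1, G6pdx, Taldo1, Slc2a1, Me1 and the second Aldoa identifier cross it. Pfkp moves away from 0 there (0.18 to 0.74). In pretreated H2O2 against H2O2, Prps1 crosses 0 (-0.1 to 0.13), Pgk1 moves close to it (-0.18 to -0.03) and Pfkp moves away (-0.09 to -0.39). Slc2a1, Pfkm, Pfkfb4 and Eno2 stay near their values, and Hk2 moves from 1.41 to 1.22.

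Genes next to the pathway were taken from 7 further lists, and from each the called gene with the largest change in pretreated H2O2 against H2O2 and a mean of at least 1 FPKM is named. Among transcriptional regulators of glycolysis, 7 of 18 tested genes were higher and 10 lower in pretreated H2O2 than in H2O2. Over all genes these shares were 32.4% and 31.3%, and the counts of several lists given here and below, such as 5 and 6 of 16 or 3 and 4 of 11, lie near them and show nothing about those lists. Txnip, a glucose-induced arrestin that removes GLUT1 from the cell surface and binds thioredoxin, had 0.648, 0.761 and 1.05 FPKM in pretreated H2O2, 6.63, 5.93 and 6.05 FPKM in H2O2 and 2.84, 2.91 and 2.69 FPKM in control. The 3 groups did not overlap, with pretreated libraries lowest. Txnip was 7.33-fold lower in pretreated H2O2 than in H2O2 (log2 fold change -2.87, SE 0.15, adjusted p = 5.01e-09), 3.3-fold lower than in control (-1.72, adjusted p = 5.11e-07), and 2.22-fold higher in H2O2 than in control (1.15, SE 0.138, adjusted p = 1.49e-05).

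Among 11 tested genes of gluconeogenesis and glycogen, 3 were higher and 4 lower in pretreated H2O2 than in H2O2. Pygm, the muscle-type glycogen phosphorylase, had 3.8, 3.63 and 3.8 FPKM in pretreated H2O2, 0.31, 0.324 and 0.224 FPKM in H2O2 and 0.101, 0.187 and 0.156 FPKM in control. It was 13.2-fold higher in pretreated H2O2 than in H2O2 (log2 fold change 3.72, SE 0.193, adjusted p = 4.61e-09). Of 7 other glycolytic isozymes tested, 2 were higher and 4 lower. Pgam2, the muscle-type phosphoglycerate mutase, had 4.26, 4.53 and 4.49 FPKM in pretreated H2O2, 0.667, 0.592 and 0.585 FPKM in H2O2 and 1.01, 1.07 and 0.601 FPKM in control, and was 7.2-fold higher in pretreated H2O2 than in H2O2 (2.85, adjusted p = 3.77e-07). Pgam2 stayed far below Pgam1 in every group.

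Of 13 tested genes for other NADPH sources and NAD kinases, 3 were higher and 8 lower in pretreated H2O2 than in H2O2. Idh1, the cytosolic isocitrate dehydrogenase that makes NADPH, had 12.7, 10.9 and 10.8 FPKM in pretreated H2O2, 28.9, 27.2 and 26.6 FPKM in H2O2 and 31.6, 29.7 and 28.9 FPKM in control. It was 2.35-fold lower in pretreated H2O2 than in H2O2 (log2 fold change -1.23, SE 0.0613, adjusted p = 3.1e-09) and 2.54-fold lower than in control (-1.35, adjusted p = 1.34e-09), opposite in direction to Pgd and Me1 in the same libraries. Of 13 tested monocarboxylate carriers and genes of the pyruvate gate, 2 were higher and 8 lower, and Pdk2, which inhibits pyruvate dehydrogenase, had 0.634 ± 0.0603 FPKM in pretreated H2O2, 1.22 ± 0.172 FPKM in H2O2 and 1.16 ± 0.176 FPKM in control (-0.92 against H2O2, adjusted p = 0.000464). Of 16 other hexose transport and entry genes, 5 were higher and 6 lower, and Sord, the sorbitol dehydrogenase, had 7.08 ± 0.128 FPKM in pretreated H2O2, 11.3 ± 0.31 FPKM in H2O2 and 11.2 ± 0.786 FPKM in control (-0.64, adjusted p = 2.24e-06). Of 8 other pentose phosphate genes, 1 was higher and 4 lower, and Idnk, a gluconate kinase, had 1.52 ± 0.124 FPKM in pretreated H2O2, 2.99 ± 0.331 FPKM in H2O2 and 2.54 ± 0.165 FPKM in control (-0.94, adjusted p = 1.17e-05).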

How the data were processed

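RNA of 9 HEI-OC1 libraries, 3 each of pretreated H2O2, H2O2 and control cells, was polyadenylated RNA made into strand-specific libraries by the dUTP method and sequenced as paired reads of 150 bp, per the labels' protocols. The authors deposited a table of estimated counts per gene for 55401 genes, not scaled to library size, and a table of the same counts with their FPKM for 30411 genes. The counts are called estimated because low values peak at 4 and 8: 9836 values equalled 4, 4842 equalled 3 and 4196 equalled 8. A fragment may thus have given about 4 counts, so low counts may stand for fewer fragments. No source used here names the aligner or the counting program. The build hg38 is named per the submitters' processing notes, yet the deposited tables hold mouse identifiers with GRCm38 coordinates, of which 30318 genes matched GENCODE M21, the annotation that gave the exons for the overlaps and copies.

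The counts were tested with edgeR 4.0.16 in R 4.3.3 by its quasi-likelihood test, with all 9 libraries in 1 fit of group means, TMM scaling, filterByExpr (which kept 18092 genes, all 36 identifiers among them) and Benjamini-Hochberg adjustment over all genes tested, called at an adjusted p under 0.05. Log2 fold changes and standard errors come from this fit, and levels are the deposited FPKM as mean ± SD. No intervals on counting error are given, because without molecular identifiers reads do not count molecules independently. Alternatives were RLE size factors, library totals only, DESeq2 1.42.0, limma 3.58.1 on log2(FPKM + 0.1) or log2(FPKM + 1), other filters, a replicate block, each library left out, counts divided by 4, and offsets for transcript length and GC content, which 99.8% of tested genes had. The test was checked on simulated data with 200 changed genes. Far more genes were called in these data, many with smaller changes than those simulated, so the check does not vouch for these calls. Summing a gene with its near-identical copies was added after the data were seen. Sums and shares of FPKM carry no test.

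The gene list, the further lists and the tests were chosen with earlier results of these data known. Values per library are given for genes called in a comparison with a log2 fold change of at least 0.5 in size there and a mean of at least 1 FPKM, and for those called in none. Slc16a3 and Ldhb were added after their values were seen. Summaries used Python 3.11.15.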

Additional observations from a re-analysis of the deposited data

How the results depend on the processing

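Signs of genes called with or without the length and GC offsets turned with them in H2O2 against control for Pgam1 (-0.02), G6pdx (-0.02) and Taldo1 (-0.03), and those of the uncalled Slc2a1 (-0.05), Me1 (-0.04) and Aldoa ENSMUSG00000114515 (-0.03) also changed. Signs of called genes turned in pretreated H2O2 against H2O2 for Prps1 (0.13), and in pretreated H2O2 against control for Aldoa ENSMUSG00000030695 (-0.05), Tpi1 (-0.19), Eno1 (-0.06), Pkm (-0.08), Ldha (-0.04), G6pdx (-0.11) and Taldo1 (-0.20), and 18 genes, not 10, were called lower there; the cause was not tested. In pretreated H2O2 against control, Pkm was at -0.01 with library totals only and with each of the 3 limma settings, and Gapdh at 0.16 with its copies summed. With a filter at a mean of 0.5 FPKM, limma called 3664 of all genes higher in pretreated H2O2 against H2O2 with a pseudocount of 0.1 and 3676 with a pseudocount of 1, against 5856 by edgeR, and 3783 and 3794 in pretreated H2O2 against control, against 6088. Fewer genes, 12873, were tested there. The median of all genes was -0.13 in the first of these comparisons, against 0.02 by edgeR, and -0.07 in the second, against 0.06, and log2 fold changes read against it moved by as much. Of all gene-level alternatives 1919 kept their side of the threshold and, where called, their direction. A call was lost in 55 and gained in 38, and 16 turned sign with a call on at least 1 side. Leaving out 1 library at a time gave 22 to 23 higher and 5 to 6 lower in H2O2 against control, 8 to 9 and 22 to 23 in pretreated H2O2 against H2O2, and 13 to 15 and 9 to 10 in pretreated H2O2 against control. Libraries with the same number did not deviate together (correlations of -0.054 to 0.13, against -0.128 to 0.102 for different numbers), so the numbers were not taken to pair the samples. A replicate block gave 22 higher and 6 lower, 8 and 22, and 14 and 10 in the same comparisons; Ldhb in H2O2 against control (adjusted p = 0.0527) and Tigar in pretreated H2O2 against control (adjusted p = 0.0553) lost their calls, and no other gene described did. Aldoc, Slc16a3, Aldoa ENSMUSG00000114515 and Ldhb rest on few counts, 380, 487, 858 and 869 over all 9 libraries. Slc2a3 and Pfkfb2, also under about 1 FPKM, had 1800 and 2988.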
